A study of Bos taurus with 6 samples.

Results

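BNIP3, BNIP3L, PINK1, SQSTM1, MAP1LC3A, MAP1LC3B, GABARAPL1, ULK1, TFEB and TFE3 are mitophagy and autophagy genes, together with the TFE transcription factors that regulate many of them. These 10 genes, of 19163 in the deposited count table, were chosen by name as the BNIP3 family, autophagy receptors and their TFE regulators. All 10 were found by symbol in the deposited TPM table and by Entrez identifier in the count table. They were compared in F7, bovine embryonic stem cells (bESCs) kept as 1 line, derived from in vitro fertilized embryos of Holstein Friesian cattle. F7 was grown on mouse embryonic fibroblasts (MEFs) that no longer divide after mitomycin C treatment (MC-F7, called 1M-F7 in the labels), or on dead MEFs left after methanol fixation (MT-F7). There were 3 libraries in each group, and the description of the series gives 15 passages for both. Both groups received medium with fibroblast growth factor and the Wnt inhibitor IWR1. According to the methods, medium was changed every day for MC-F7 and every other day for MT-F7, so feeder type and medium change cannot be told apart in these data. Before collection, feeder cells were removed by letting them settle on a gelatin-coated dish, and mouse RNA that remained could have been counted on bovine genes. The paper reports that a smaller share of reads aligned to the bovine genome in MC-F7 than in MT-F7. It proposes that fixed feeders left less feeder material in the cultures, so remaining mouse RNA may differ between the groups. The sources do not state that libraries within a group are from separate cultures, and if they are not, SDs and p values cover technical spread only.

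Autophagy encloses cell material in a double membrane, the autophagosome, and delivers it to lysosomes. The ULK1 kinase complex starts the membrane, proteins of the ATG8 family (LC3 and GABARAP) coat it, and cargo receptors such as SQSTM1 (p62) tie cargo to that coat. In mitophagy the cargo is the mitochondrion, which is marked either by the kinase PINK1 through ubiquitin, or by receptors in its outer membrane such as BNIP3 and BNIP3L (NIX). TFEB and TFE3 enter the nucleus when the kinase mTORC1 is inactive and switch on lysosomal and autophagy genes. The level of an mRNA does not measure the flow of material through autophagy.

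The libraries held 21958386 to 24933430 gene counts each. Counts were normalized by the TMM method and are given per 1000000 counts (CPM), and 13001 genes passed the filter on low counts and were tested with edgeR's quasi-likelihood test. Adjusted p values are from this test with Benjamini-Hochberg adjustment over all 13001 genes. Log2 fold changes are MT-F7 over MC-F7, so genes higher in MT-F7 have positive ones. A detection floor of 3 counts was used, equal to 0.12 to 0.137 CPM, which covers counting error only, as do the counting intervals below. Among defining markers of pluripotent cells, POU5F1, NANOG, SALL4, LIN28A, DPPA4, ZFP42, TDGF1 and EPCAM were measured. Their summed level was 1062 to 1771 CPM in MC-F7 and 632 to 704 CPM in MT-F7, most of it POU5F1 (825 to 1456 and 486 to 557 CPM). Of the 8 genes, 7 passed the test (adjusted p under 0.05), all lower in MT-F7. Over all tested genes 23.2% passed, 11.3% lower and 11.9% higher in MT-F7. DPPA4, with 4, 5 and 4 counts in MT-F7, passed the filter on low counts only through MC-F7. SOX2 and LIN28B were not in the count table. Of 14 fibroblast markers, 13 were tested and 5 passed (38.5%), 4 higher (COL3A1, POSTN, PDGFRB and COL5A1) and 1 lower (TWIST2) in MT-F7. TWIST2, with 2, 13 and 15 counts in MT-F7, relied on MC-F7 to pass the filter. The summed level of the 14 was 327 to 390 CPM in MC-F7 and 496 to 538 CPM in MT-F7, and FAP had 0 counts in all MT-F7 libraries. The part of cell makeup in the differences below was not tested, and in bulk RNA fewer cells of a type and less RNA per cell cannot be told apart.

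All 10 genes passed the filter and were tested. BNIP3, BNIP3L and TFE3 fell in MT-F7 and MAP1LC3A rose, while PINK1, SQSTM1, MAP1LC3B, GABARAPL1, ULK1 and TFEB did not pass the test. Thus 4 of 10 genes were called, where 23.2% of all tested genes were called. The split was 3 lower (11.3% of all tested genes were called lower) and 1 higher (11.9% called higher). Of these, BNIP3 passed the filter on low counts only through MC-F7, where it was high. With at least 10 counts required in every library, 3 of 9 genes were called, 2 lower and 1 higher. Over all genes 2712 of 11970 were called in that setting. The groups did not overlap in 7 of the 10 genes, against 40% of all tested genes. In 5 of them MT-F7 lay below (20.1% of all tested genes) and in 2 above (19.9%). The median log2 fold change was -0.27 over the 10 genes and -0.0026 over all tested genes.

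**Figure D1:**
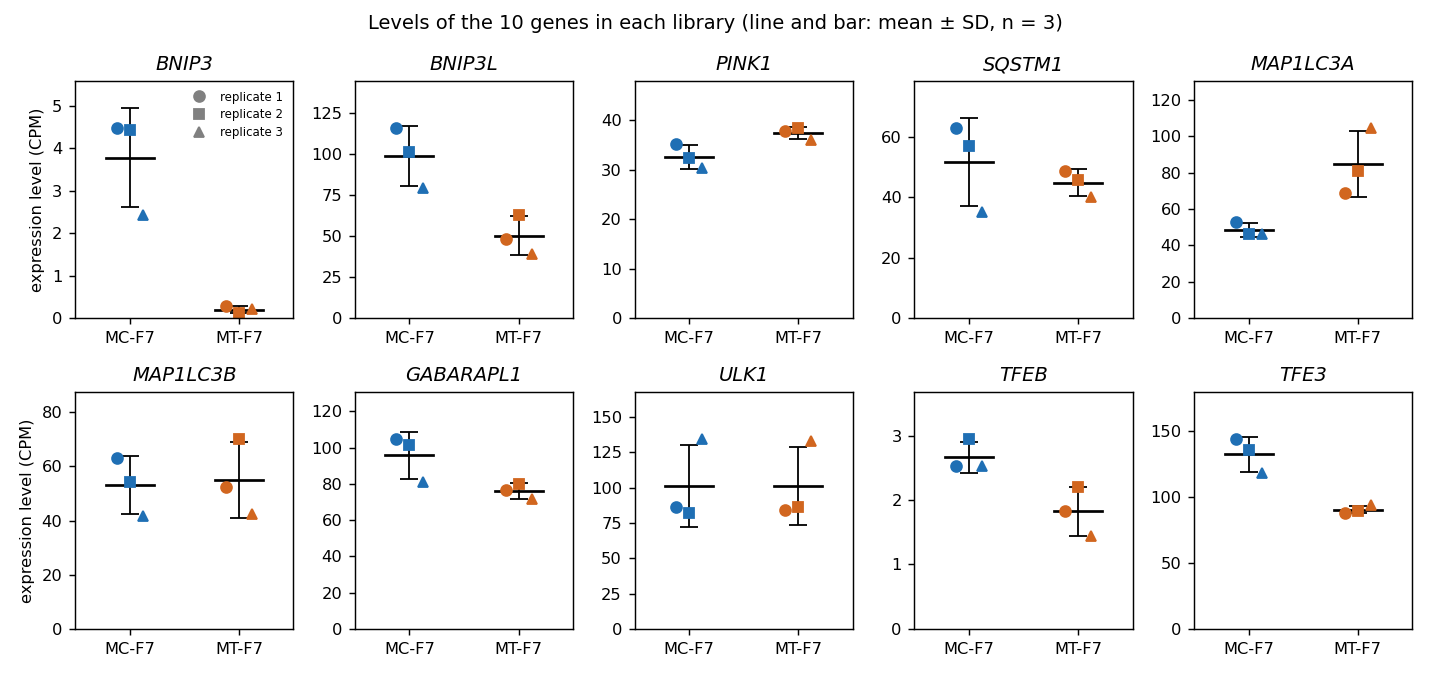
Expression level in CPM (linear axes from 0) of each gene in the 3 MC-F7 (blue) and 3 MT-F7 (orange) libraries, with a marker shape for each replicate and a line and bar for the mean ± SD. The MT-F7 points of BNIP3 lie between 0.116 and 0.279 CPM, below all MC-F7 points, while the points of ULK1 in both groups lie at nearly the same levels.

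BNIP3 (Entrez gene 615342), an outer membrane mitophagy receptor known as a target of hypoxia inducible factors (HIFs), had the largest change of the 10 genes. Its level was 4.47, 4.44 and 2.43 CPM in the MC-F7 libraries and 0.279, 0.116 and 0.212 CPM in the MT-F7 libraries. Every MT-F7 library lay far below the lowest MC-F7 library, and MC-F7 replicate 3 lay well below the other MC-F7 libraries. The mean fell from 3.78 ± 1.17 to 0.202 ± 0.082 CPM (SD, n = 3), a log2 fold change of -4.20 (standard error 0.446, 95% interval -5.16 to -3.23). The counts behind these levels were 101, 107 and 52 (MC-F7) and 7, 3 and 5 (MT-F7), so that the MT-F7 level was near the detection floor. The gene passed the filter on low counts only through MC-F7, so its p value is not given. The standard error and 95% interval above come from the same test and share this limit. From the summed counts, 260 and 15, MC-F7 had 19.0 times the level of MT-F7, with an exact 95% counting interval of 11.3 to 34.4. With each of the 6 libraries left out in turn, the log2 fold change was -4.50 to -3.91.

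BNIP3L (534615), the close relative of BNIP3 that removes mitochondria from maturing red blood cells, changed less. Its level was 115, 101 and 79.4 CPM in MC-F7 and 48.1, 63.0 and 39.3 CPM in MT-F7. The highest MT-F7 library stayed below the lowest MC-F7 library. The mean fell from 98.7 ± 18.1 to 50.1 ± 11.99 CPM (SD, n = 3), 1.97-fold lower on the fitted scale (log2 fold change -0.98, standard error 0.197, adjusted p = 0.0034). The call held in all 6 fits that left out 1 library, but not with limma on log2(TPM + 1) of all genes (adjusted p = 0.075). The difference between both receptors was also seen within each library, free of any scaling between libraries. The log2 ratio of BNIP3 to BNIP3L counts was -4.69, -4.51 and -5.03 (MC-F7) and -7.43, -9.09 and -7.53 (MT-F7). The mean ratio was 3.27 log2 units lower in MT-F7 (-8.02 ± 0.929) than in MC-F7 (-4.74 ± 0.262, SD, n = 3), so the difference in BNIP3 mRNA was larger than that of BNIP3L in all MT-F7 libraries. Such ratios are given as values with their spread, and no test of them was run.

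**Figure D2:**
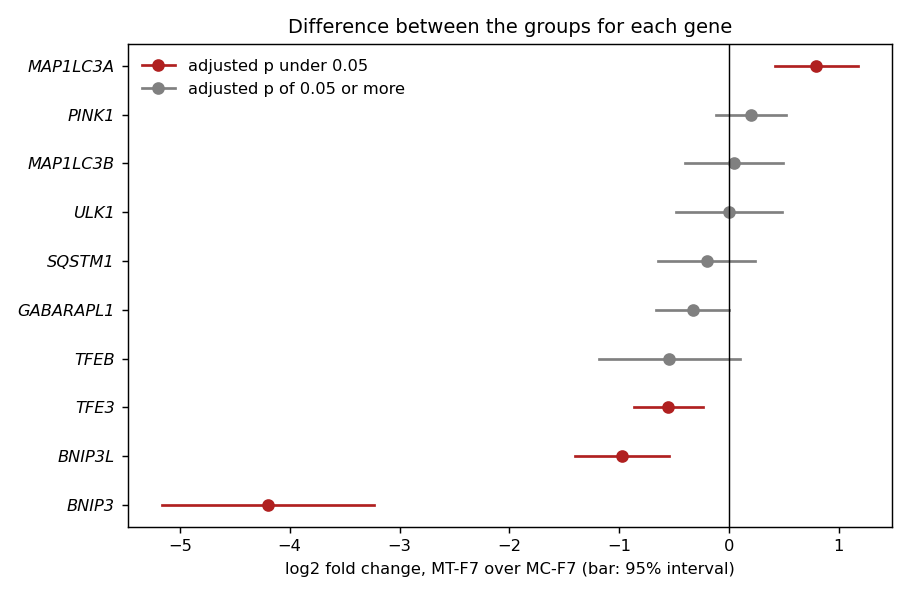
Log2 fold change of MT-F7 over MC-F7 for each gene (points) with the 95% interval of the edgeR fit (bars), red where the adjusted p was under 0.05. BNIP3 at -4.20 stands apart from the other 9 genes, which lie between -0.98 and 0.80. BNIP3 passed the filter on low counts only through MC-F7, which limits its interval and color.

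PINK1 (510683), the kinase that gathers on damaged mitochondria, was measured at 35.1, 32.3 and 30.3 CPM in MC-F7 and 37.8, 38.3 and 36.0 CPM in MT-F7. The MT-F7 libraries lay slightly above the MC-F7 libraries without overlap. The log2 fold change was 0.20 (standard error 0.146, 95% interval -0.12 to 0.52, adjusted p = 0.36), and the gene passed in none of the 17 alternatives run.

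Of 20 further mitophagy genes, 19 were tested, and 4 passed, all of them lower in MT-F7. The share of 21.1% was near the 23.2% of all tested genes, and the median log2 fold change was -0.25. PPTC7, a mitochondrial phosphatase that restrains BNIP3 and BNIP3L, fell from 17.7 ± 0.568 to 10.9 ± 1.84 CPM (log2 fold change -0.69, adjusted p = 0.014). TOMM20, a receptor of the import pore of the outer membrane, fell from 253 ± 41.8 to 162 ± 37.0 CPM (log2 fold change -0.64, adjusted p = 0.032). MUL1, a ubiquitin ligase of the outer membrane, fell from 47.4 ± 1.61 to 31.8 ± 1.48 CPM (log2 fold change -0.58, adjusted p = 0.011), and NIPSNAP2 was the remaining one. The log2 fold change of the receptor FUNDC1 was -0.45 (adjusted p = 0.22), that of BCL2L13 -0.048 (0.85) and that of FKBP8 -0.23 (0.38). The count of 4 dropped to 1 without MC-F7 replicate 2 or without MT-F7 replicate 1. Calls over all genes also fell in these fits, to 1914 of 13177 and 2155 of 13247. The count for the list was 9 (8 lower and 1 higher) without replicate 3 of both groups, an alternative chosen after the data had been seen. Calls over all genes rose there as well, to 4242 of 13073 (32.4%).

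SQSTM1 (338045), the receptor that carries ubiquitinated cargo and is itself degraded by autophagy, was at 62.7, 56.8 and 35.1 CPM in MC-F7. In MT-F7 it was at 48.6, 45.6 and 39.997 CPM, inside the range of the MC-F7 libraries. The log2 fold change was -0.20 (standard error 0.202, 95% interval -0.64 to 0.23, adjusted p = 0.51). MC-F7 replicate 3 was the lowest of all 6 libraries. Without replicate 3 of both groups the log2 fold change was -0.33 (adjusted p = 0.043), which was the only alternative under which SQSTM1 passed.

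Among 14 other cargo receptor genes 13 were tested, and 2 were higher and 1 lower in MT-F7. The share of 23.1% was near the 23.2% of all tested genes, and the median log2 fold change was 0.083. OPTN (optineurin), a receptor for ubiquitinated mitochondria, rose from 28.6 ± 2.43 to 53.6 ± 12.7 CPM (log2 fold change 0.90, adjusted p = 0.0034). CALCOCO1, a receptor for endoplasmic reticulum and Golgi, rose from 26.1 ± 4.30 to 44.0 ± 3.66 CPM (0.76, adjusted p = 0.0058). TEX264, another receptor for endoplasmic reticulum, fell from 39.0 ± 1.46 to 26.5 ± 1.83 CPM (-0.56, adjusted p = 0.015). NBR1, the relative of SQSTM1, had a log2 fold change of 0.42 (adjusted p = 0.085), and CALCOCO2 (NDP52) had 0.083 (adjusted p = 0.82). Without MT-F7 replicate 3 the count was 5, with 4 higher and 1 lower, and 3087 of 13242 passed over all genes.

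MAP1LC3A (514547), which encodes an LC3 protein of the autophagosome coat, was the 1 gene of the 10 that rose. It was at 53.1, 46.6 and 46.2 CPM in MC-F7 and 68.6, 80.6 and 104 CPM in MT-F7. All MT-F7 libraries lay above all MC-F7 libraries, and MT-F7 replicate 3 was the highest. The mean rose from 48.6 ± 3.87 to 84.5 ± 18.2 CPM (SD, n = 3), a log2 fold change of 0.80 (standard error 0.173, 95% interval 0.42 to 1.17, adjusted p = 0.0052). The gene passed in all 17 alternatives, with log2 fold changes from 0.60 to 0.92.

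MAP1LC3B (408001), the LC3 gene whose protein is the usual marker of autophagosomes, did not share this change. Its levels were 63.2, 54.4 and 41.7 CPM in MC-F7 and 52.4, 70.0 and 42.3 CPM in MT-F7, and the groups overlapped over nearly their whole range. The log2 fold change was 0.048 (standard error 0.206, 95% interval -0.40 to 0.49, adjusted p = 0.89). Within libraries, the log2 ratio of MAP1LC3A to MAP1LC3B counts was -0.25, -0.22 and 0.15 (MC-F7) and 0.39, 0.20 and 1.30 (MT-F7). Its mean was 0.74 higher in MT-F7 (0.63 ± 0.588 against -0.11 ± 0.223, SD, n = 3), and 0.41 higher without MT-F7 replicate 3. These ratios did not overlap between the groups, but the margin between MC-F7 replicate 3 and MT-F7 replicate 2 was small.

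GABARAPL1 (338472), an ATG8 protein of the GABARAP branch, was at 105, 101 and 80.9 CPM in MC-F7 and 76.5, 80.1 and 71.6 CPM in MT-F7. The highest MT-F7 library lay just under the lowest MC-F7 library. The log2 fold change was -0.33 (standard error 0.152, adjusted p = 0.14). It passed without replicate 3 of both groups (adjusted p = 0.015). Its relative GABARAP rose from 171 ± 20.5 to 302 ± 39.8 CPM (log2 fold change 0.82, adjusted p = 0.0029), and GABARAPL2 had a log2 fold change of 0.21 (adjusted p = 0.38). Among the 13 other genes of the ATG8 family and its conjugation machinery, 12 were tested and GABARAP was the only one that rose. ATG16L1, which places the conjugation machinery on the membrane, fell from 59.4 ± 13.5 to 36.3 ± 7.89 CPM (-0.71, adjusted p = 0.023). These 2 calls were 16.7% of the genes tested, with 23.2% over all tested genes, and the median log2 fold change was -0.14. The count was 1 without MC-F7 replicate 2, MC-F7 replicate 3, MT-F7 replicate 1 or MT-F7 replicate 2, and 4 without MT-F7 replicate 3. Over all genes these fits called, in that order, 1914 of 13177, 3093 of 13197, 2155 of 13247, 2235 of 13242 and 3087 of 13242. ATG4A, a protease that processes ATG8 proteins, was too low for the test, with 0 counts in all MC-F7 libraries and 8, 13 and 6 in MT-F7, which was at least 2.71-fold higher against the detection floor per library.

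ULK1 (526310), the kinase that starts autophagosome formation, was at 86.3, 82.2 and 134 CPM in MC-F7 and 84.1, 86.6 and 133 CPM in MT-F7. Replicate 3 of each group was high and the other libraries of both groups lay close together. The log2 fold change was 0.0035 (standard error 0.223, 95% interval -0.48 to 0.49, adjusted p = 0.99), so changes of up to about that size in either direction lie within the interval. Its relative ULK2 rose from 27.8 ± 8.12 to 52.0 ± 7.73 CPM (log2 fold change 0.90, adjusted p = 0.0082). Of the 19 other genes of initiation and nucleation, all tested, 3 passed, and ULK2 was 1 of them. WDR45 (WIPI4), a lipid binding protein of the growing membrane, rose (log2 fold change 0.73, adjusted p = 0.029), while its family member WDR45B (WIPI3) fell from 93.0 ± 8.28 to 57.9 ± 4.22 CPM (-0.68, adjusted p = 0.0048). The 3 calls were 15.8% of the 19 genes, with 23.2% over all tested genes, and the median log2 fold change was -0.18. BECN1 and PIK3C3, the core of the lipid kinase complex, were at 0.0045 and -0.28 on this scale (adjusted p = 0.99 and 0.25).

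TFE3 (520800), 1 of the 2 TFE factors among the genes, was at 144, 136 and 118 CPM in MC-F7 and 88.0, 89.5 and 93.8 CPM in MT-F7. The MT-F7 libraries lay close together, all below the MC-F7 libraries. The mean fell from 132 ± 13.2 to 90.4 ± 2.98 CPM (SD, n = 3), a log2 fold change of -0.55 (standard error 0.144, 95% interval -0.86 to -0.24, adjusted p = 0.015). The call was lost without MC-F7 replicate 1 (adjusted p = 0.0501), MC-F7 replicate 2 (0.079), MT-F7 replicate 1 (0.065) or MT-F7 replicate 2 (0.062). It held without MC-F7 replicate 3 (0.0082), without MT-F7 replicate 3 (0.012) and without both (0.00043). TFEB (510032), the better known factor, was low, at 2.52, 2.94 and 2.53 CPM in MC-F7 and 1.83, 2.20 and 1.44 CPM in MT-F7. The groups did not overlap, but with 34 to 71 counts per library the log2 fold change of -0.54 had a standard error of 0.296 (95% interval -1.18 to 0.10, adjusted p = 0.21). The log2 ratio of TFE3 to TFEB counts was 5.83, 5.53 and 5.54 (MC-F7) and 5.59, 5.35 and 6.02 (MT-F7), with means of 5.63 ± 0.172 and 5.65 ± 0.342 (SD, n = 3). The difference of 0.016 was within the spread of the libraries and changed sign when single libraries were left out.

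The other factors of this family were nearly absent in MC-F7. For TFEC 0, 1 and 0 counts (MC-F7) and 28, 24 and 13 counts (MT-F7) were found, a ratio of 59.4 with an exact 95% counting interval of 10.3 to 2381. It passed the filter on low counts only through MT-F7, so its test is not given. For MITF they were 0, 0 and 2 (MC-F7) and 7, 19 and 5 (MT-F7), a ratio of 14.2 (3.60 to 122), and the gene was too low for the test. Both were named after their values had been seen, since they lay under the level of 1 CPM set for named genes. The mean of TFEC in MT-F7 was 0.865 ± 0.287 CPM (SD, n = 3).

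Of 26 relatives and regulators of the TFE factors, 24 were tested, and 3 were higher and 3 lower in MT-F7. The share of 25.0% was near the 23.2% of all tested genes, and the median log2 fold change was 0.15. RRAGD, the Rag GTPase that is itself a known TFE target, fell from 187 ± 28.5 to 103 ± 8.10 CPM (log2 fold change -0.87, adjusted p = 0.0017). RRAGA fell from 103 ± 21.8 to 63.2 ± 16.0 CPM (-0.70, adjusted p = 0.029), and the calcineurin subunit PPP3CC fell as well (-0.55, adjusted p = 0.027). FLCN (folliculin), which acts on RRAGC and RRAGD so that mTORC1 keeps TFE factors out of the nucleus, rose from 42.0 ± 7.97 to 67.0 ± 2.52 CPM (0.67, adjusted p = 0.0098). MCOLN1, the lysosomal calcium channel that activates calcineurin, rose (0.64, adjusted p = 0.017), and TFEC was the remaining higher gene. With at least 10 counts required in every library TFEC was not tested, and 2 of 23 genes were higher and 3 lower. The mTORC1 genes MTOR and RPTOR were at 0.13 and 0.15 on this scale (adjusted p = 0.71 and 0.65). Without MC-F7 replicate 2 the count was 2, 1 in each direction, and calls over all genes also fell, to 1914 of 13177.

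**Figure D3:**
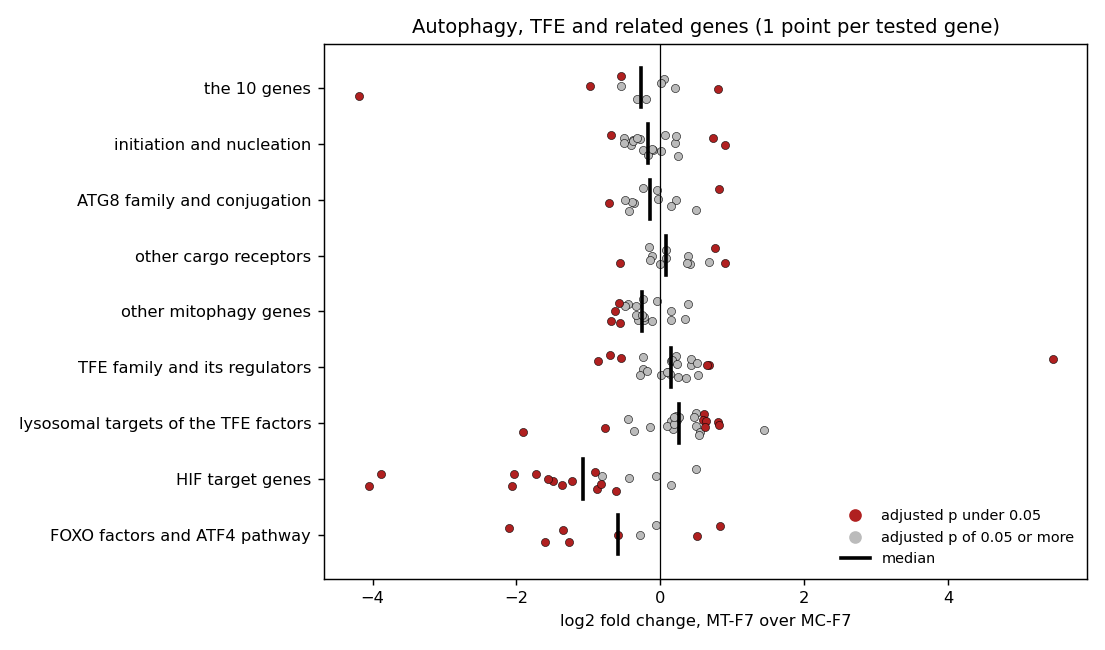
Log2 fold change of MT-F7 over MC-F7 for every tested gene (1 point per gene, spread vertically for visibility) of the 10 genes and 8 related lists, red where the adjusted p was under 0.05, with a bar at each list's median. The HIF targets have the lowest median (-1.07), while the lysosomal targets of the TFE factors have a median of 0.26.

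Genes with known TFE binding elements, most of them lysosomal, moved in both directions. Of 25 such genes, all tested, 8 passed, 6 higher and 2 lower in MT-F7 (32.0%, with 23.2% over all tested genes). Their median log2 fold change was 0.26. Log2 fold changes were above 0 for 20 of the 25, and for 6476 of 13001 over all tested genes. CTSA, a protective protein of lysosomal enzymes, was among the higher ones (0.61, adjusted p = 0.042). TPP1, a peptidase, rose from 35.3 ± 6.23 to 61.8 ± 5.27 CPM (0.81, adjusted p = 0.0038), and SGSH, a sulfatase, rose from 17.5 ± 1.71 to 30.6 ± 0.608 CPM (0.81, adjusted p = 0.0024). HEXA rose as well (0.59, adjusted p = 0.023). ATP6V0D2, a subunit of the proton pump, fell from 6.06 ± 0.922 to 1.61 ± 0.476 CPM (-1.91, adjusted p = 4.4e-04). The membrane protein LAMP2 fell from 221 ± 55.1 to 129 ± 22.5 CPM (-0.78, adjusted p = 0.014), whereas LAMP1 had a log2 fold change of 0.49 (adjusted p = 0.085). The count of 8 was 4 without MC-F7 replicate 2 and 5 without MT-F7 replicate 1. Over all genes calls fell there to 1914 of 13177 and 2155 of 13247.

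BNIP3 and BNIP3L are known HIF targets, and of 18 other HIF target genes 13 passed, all of them lower in MT-F7 (72.2%, with 23.2% over all tested genes), with a median log2 fold change of -1.07. LDHA, which turns pyruvate into lactate, fell from 534 ± 152 to 32.3 ± 7.78 CPM (-4.05, adjusted p = 7.7e-07). ADM, the gene of the peptide adrenomedullin, fell from 17.9 ± 1.84 to 1.21 ± 0.233 CPM (-3.89, adjusted p = 6.2e-07), and the glycolytic enzyme PGK1 fell from 482 ± 105 to 115 ± 23.4 CPM (-2.06, adjusted p = 2.1e-05). The change of BNIP3 was of the size of those of LDHA and ADM, which were the largest among the 18 genes. The part of HIFs in the change of BNIP3 was not tested. Of the 18 HIF target genes, 5 did not pass. EGLN3, KDM3A and DDIT4 had log2 values of 0.14, -0.066 and -0.43 (adjusted p = 0.58, 0.83 and 0.27), and BHLHE40 had -0.81 (0.063). PFKFB4, an enzyme that regulates glycolysis, lay higher in all MT-F7 libraries, with a log2 value of 0.49 (adjusted p = 0.097). Without MC-F7 replicate 3, where 3093 of 13197 passed over all genes, 14 HIF targets passed as lower and 1 as higher. Some of these genes were known from earlier results of these data to be lower, so the list is not independent evidence of its direction.

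FOXO factors and ATF4, which are known to switch on genes such as BNIP3, GABARAPL1, SQSTM1 and MAP1LC3B, made a list of 10 genes with their targets. Of 9 tested genes 2 were higher and 5 lower in MT-F7 (77.8%, with 23.2% over all tested genes), with a median log2 fold change of -0.58. FOXO1 fell from 3.999 ± 1.37 to 0.937 ± 0.416 CPM (-2.10, adjusted p = 0.0017), while FOXO4 rose (0.83, adjusted p = 0.012). ATF4 fell from 583 ± 62.7 to 389 ± 24.7 CPM (-0.58, adjusted p = 0.015). Of its targets, TRIB3 fell from 1.90 ± 0.355 to 0.621 ± 0.273 CPM (-1.61) and ASNS, the asparagine synthetase, from 427 ± 64.6 to 168 ± 36.8 CPM (-1.35, adjusted p = 2.9e-04). TRIB3 relied on MC-F7 to pass the filter, so its p value is not given. CHAC1 fell as well (-1.27, adjusted p = 0.0019), but SESN2 rose (0.51, adjusted p = 0.044). DDIT3 (-0.065, adjusted p = 0.84) and ATF3 (-0.29, adjusted p = 0.24) did not pass. With at least 10 counts required in every library, 6 of 8 genes passed, 2 higher and 4 lower. The count of 7 was 4 without MC-F7 replicate 2 or MT-F7 replicate 1, where calls over all genes fell to 1914 of 13177 and 2155 of 13247.

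Levels of different genes were compared in the deposited TPM values, which are counts divided by a factor for each gene. In MC-F7, BNIP3L was the highest of the 10 genes at 15.5 ± 3.35 TPM (SD, n = 3), above GABARAPL1 (10.3 ± 1.85), TFE3 (8.15 ± 1.16) and MAP1LC3A (7.93 ± 0.771). The range of GABARAPL1 over the libraries overlapped with that of TFE3, although GABARAPL1 was the higher within each library. TFE3 overlapped with MAP1LC3A, and their order changed between libraries. MAP1LC3B, SQSTM1 and ULK1 followed at 5.96, 4.10 and 3.71 TPM, each range overlapping with the next. MAP1LC3B was above SQSTM1 within each library, while the order of SQSTM1 and ULK1 changed between libraries. Then came PINK1 at 2.28, BNIP3 at 1.38 and TFEB at 0.225 TPM without overlap. In MT-F7, MAP1LC3A came first at 15.0 ± 2.64 TPM, above GABARAPL1 (8.95 ± 0.919) and BNIP3L (8.66 ± 2.45), which overlapped. BNIP3 came last at 0.0799 ± 0.0319 TPM, under TFEB at 0.169 ± 0.0426 TPM. The highest level thus passed from BNIP3L to MAP1LC3A and the lowest from TFEB to BNIP3. These are levels in the authors' unit, whose gene factors were not compared with annotated gene lengths. How reads shared with near-identical copies of a gene were assigned is not given in the sources used here, so the low level of BNIP3 beside BNIP3L is uncertain for this reason, while a comparison of the same gene between groups uses the same factor.

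**Figure D4:**
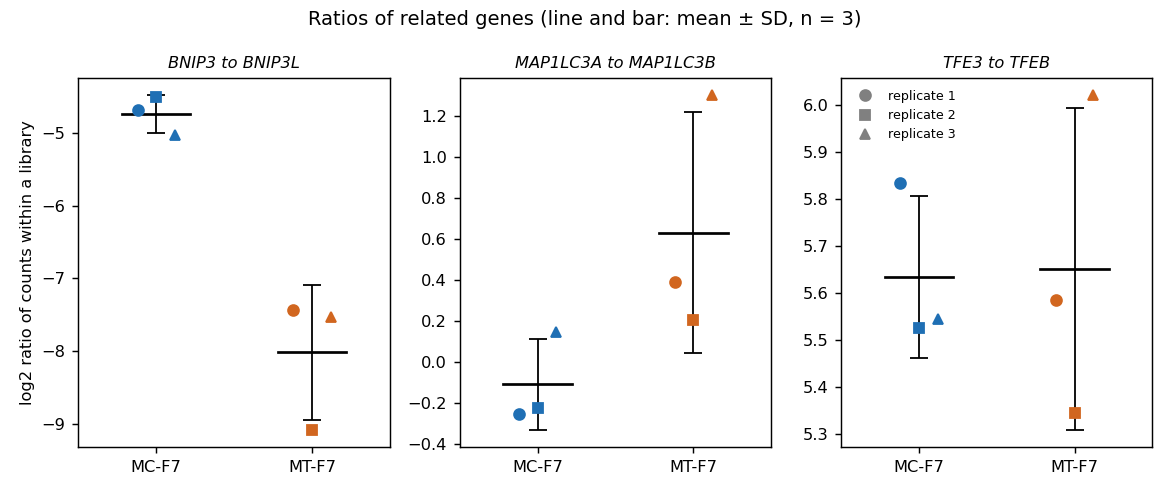
Log2 ratio of the counts of related genes within each library for MC-F7 (blue) and MT-F7 (orange), with a marker shape for each replicate and a line and bar for the mean ± SD, on axes that do not start at 0. The ratio of BNIP3 to BNIP3L is lower in all 3 MT-F7 libraries, that of MAP1LC3A to MAP1LC3B is higher in all 3, and that of TFE3 to TFEB overlaps.

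Part of the spread within the groups followed the replicate number. Replicate 3 was the lowest library in both groups for 5 of the 10 genes (BNIP3L, PINK1, SQSTM1, MAP1LC3B and GABARAPL1), and the highest in both groups for ULK1. In MC-F7 replicate 3 was the lowest for 8 genes and in MT-F7 for 6. Genes of the mitochondrial genome took 28.3% and 27.9% of the counts in replicate 3 of MC-F7 and MT-F7, and 16.3% to 23.2% in the other libraries. The mean shares of MC-F7 and MT-F7, 21.5% ± 6.16 and 23.0% ± 4.97 (SD, n = 3), differed by less than this spread. The part of this share in the levels of the 10 genes was not tested, but the calls of all 10 genes were the same when the mitochondrial genes were left out before normalization. Without replicate 3 of both groups, 6 of the 10 genes passed, 1 higher and 5 lower, where 32.4% of all tested genes passed (16.8% higher and 15.7% lower).

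**Figure D5:**
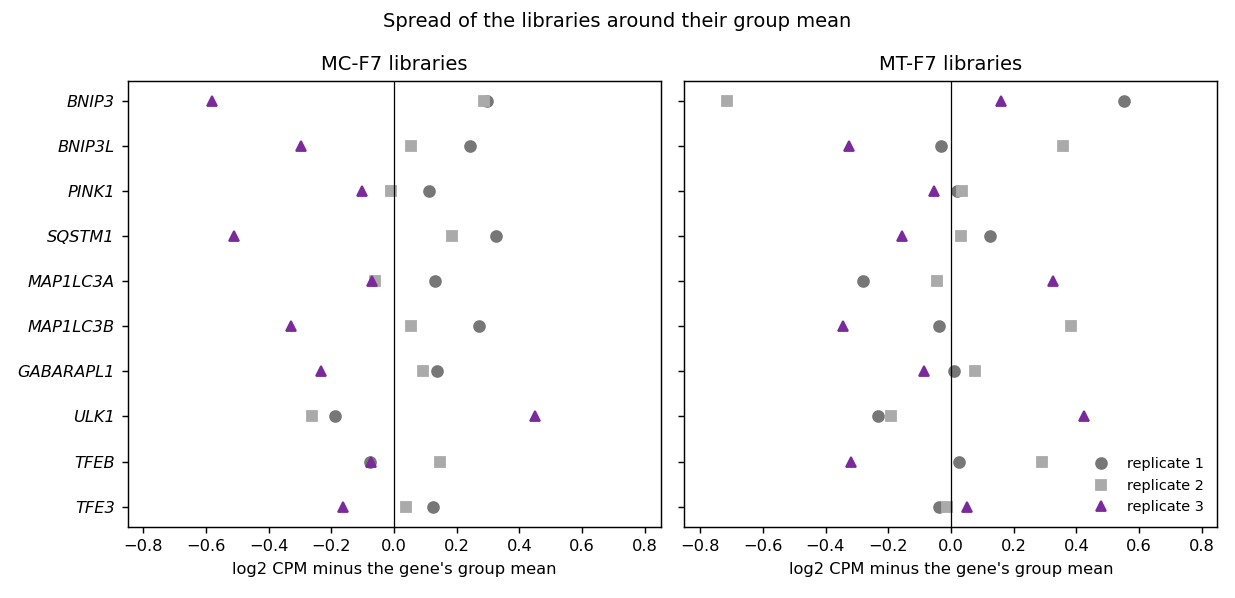
Log2 CPM of each library minus the mean of its group, for each gene, in MC-F7 (left) and MT-F7 (right), with replicate 3 in purple. Replicate 3 lies on the left for most genes in both groups and at 0.45 and 0.43 on the right for ULK1.

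The genes with the pattern most like those of BNIP3, SQSTM1 and TFE3 over the 6 libraries were looked up among 11930 other genes whose mean reached 1 CPM, by the root mean square difference of log2 CPM after each gene's mean was taken away. For BNIP3 these were BSPRY (0.156), PTGES (0.326) and PVALB (0.372). The means of BSPRY were 2.25 CPM (MC-F7) and 0.135 CPM (MT-F7). SRSF9 (0.0321), MLF2 (0.0393) and ITGB1 (0.0473) were nearest to SQSTM1, and MPP1 (0.0452), CDPF1 (0.0516) and TAMALIN (0.0524) to TFE3. With 2 groups of 3 libraries the groups and the library spread set most of this likeness, and it is given as a description only.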

How the data were processed

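RNA-seq data of MC-F7 and MT-F7 were used, with 3 libraries each. The authors aligned filtered paired-end reads (HISAT2 2.0.5) to an Ensembl reference genome, counted them on genes with featureCounts 1.5.0-p3 (versions also in the submitters' processing notes), and deposited raw counts per Entrez gene. The genome build is not given in the sources used here. The authors also deposited a table that they call TPM. For each of the 10 genes the ratio of TPM to count was the same in all libraries, so the values were not scaled to a common library total.

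The count columns named M1 were taken as the 1M-F7 libraries. Symbols came from RefSeq (ARS-UCD2.0), and 89 of 19163 genes had none and took at most 0.03% of the counts. Genes that passed filterByExpr (at least 10 counts, 15 in total) were tested with edgeR 4.0.16 (TMM, quasi-likelihood test, no block, two-sided) under R 4.3.3, and an adjusted p under 0.05 was the threshold. Of 179 genes on the lists 177 were in the count table, and the others were not analysed here. Values of some list genes are not reported here. Named besides the 10 genes were the 3 genes of each list that passed the test, reached 1 CPM on average over both groups and changed most on the log2 scale, and single genes given for background were chosen after their values had been seen. An offset of 0.01 CPM was used for likeness. The genes and lists were chosen with earlier results of these data known. Alternatives were RLE factors, library size only, DESeq2 1.42.0, other count filters, a block for the replicate number, leaving out each library, removal of mitochondrial genes, and limma 3.58.1 on log2(TPM + 1) and log2(TPM + 0.1). Steps were tested on simulated data. Tables were made with Python 3.11.15, pandas 2.3.3, numpy 2.4.6 and scipy 1.17.1, and plots with matplotlib 3.10.9.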

Additional observations from a re-analysis of the deposited data

How the results depend on the processing

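BNIP3 kept its direction in 15 of the 15 alternatives that could test it, with log2 fold changes from -4.50 to -1.12. The value nearest 0 came from log2(TPM + 1), on which low genes change less. BNIP3 has under 10 counts in MT-F7 and was not tested where 10 counts in every library or a mean TPM of at least 1 were required. BNIP3L passed in 15 of 17, MAP1LC3A in 17 of 17 and TFE3 in 10 of 17 alternatives. Leaving out single libraries gave log2 fold changes of -0.16 to 0.20 for MAP1LC3B and -0.25 to 0.26 for ULK1. MAP1LC3B changed direction without MC-F7 replicate 3 (-0.10) and without MT-F7 replicate 2 (-0.16), and ULK1 without MC-F7 replicate 1 (-0.096), MC-F7 replicate 2 (-0.12) and MT-F7 replicate 3 (-0.25). None of these passed. With each library left out in turn, calls ranged over 3 to 4 called genes of the 10, 2 to 4 of initiation and nucleation, 1 to 4 of the ATG8 family, 2 to 5 other receptors, 1 to 4 other mitophagy genes, 2 to 8 TFE relatives and regulators, 4 to 8 lysosomal targets, 11 to 15 HIF targets, 4 to 7 genes of the FOXO and ATF4 list, and 1914 to 3093 of all genes (3016 with all libraries). The difference in log2 ratio was -3.56 to -2.74 for BNIP3 to BNIP3L, 0.41 to 0.96 for MAP1LC3A to MAP1LC3B, and -0.17 to 0.17 for TFE3 to TFEB, which was -0.038 without MC-F7 replicate 2 and -0.029 without MC-F7 replicate 3. Without replicate 3 of both groups 4 ATG8 family genes, 5 other receptors and 9 other mitophagy genes were called, with 4242 of 13073 over all genes (32.4%).

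With limma, both on log2(TPM + 1) and after adding 0.1, 2 of the 10 genes (1 higher and 1 lower), 1 other mitophagy gene and 8 HIF targets passed. Over all genes 2367 of 16900 passed on log2(TPM + 1) and 2426 of 16900 after adding 0.1. With a mean TPM of at least 1 the counts for these 3 lists were again 2, 1 and 8. In that setting 1 ATG8 family gene, 3 TFE relatives and regulators and 1 gene of the FOXO and ATF4 list passed. Over all genes 1399 of 7418 passed in it. Of all calls 51.5% were higher in MT-F7 in the counts and 65.4%, 65.2% and 67.8% in these 3 settings of the TPM values. The TPM values were not scaled to a common library total, and their sums were 154763 to 161716 in MC-F7 and 163772 to 164394 in MT-F7. The median log2 fold changes of the 3 settings were 0.011, 0.052 and 0.081, with -0.0026 in the counts. The part of depth in this shift was not tested.

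Deviations from the group means were correlated across genes between same-numbered libraries at 0.17 (replicate 1), 0.071 (replicate 2) and 0.50 (replicate 3), so the numbers were not taken as pairs. With the replicate number as a block, 5 of the 10 genes passed (GABARAPL1 was added, adjusted p = 0.046). So did 7 genes of initiation and nucleation, 6 of the ATG8 family, 6 other receptors and 9 other mitophagy genes. Further calls were 14 lysosomal targets and 15 HIF targets (14 lower and 1 higher). Over all genes 4674 of 13001 passed with the block. With 7, 3 and 5 counts of BNIP3 in MT-F7, depth limits how well its level there is known.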
